A study of Mus musculus with 21 samples.

Results

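The genes described here encode amino acid sensors and the complexes that carry their signal to mTORC1, the growth kinase complex of the lysosome. They are Bmt2, Sesn1, Sesn2, Sesn3, Depdc5, Nprl2, Nprl3, Mtor, Rptor and Tsc2, chosen by gene symbol from the deposited tables. All 10 were listed in each of 3 tables, which hold 13509, 15507 and 15184 genes, and all 10 passed the filter on low counts. RNA had been sequenced from mice fed either a control diet (chow) or food restricted in methionine (MR). The 21 libraries were of CD8+ T cells of the spleen (3 control, 3 MR), from tumors of the MC38 line (4 control, 4 MR) and from tumors of the BPD6 line (4 control, 3 MR). The count columns assigned to BPD6 are headed GEMM6, a name the labels do not use, and were assigned by the name of their table. MC38 is a mouse colon carcinoma line and BPD6 a mouse melanoma line. The labels give no strain, age, sex, time on diet or other treatment, and they do not say that each library came from its own mouse. The p-values below therefore measure the spread between these libraries, part of which may be technical.

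As background, mTORC1 is switched on at the lysosome by Rag GTPases when amino acids are plentiful, and Rptor is the subunit that recruits its substrates to the kinase Mtor. GATOR1, made of Depdc5, Nprl2 and Nprl3, shuts the Rag GTPases off when amino acids are scarce. The sestrins and Bmt2 (also called SAMTOR) act upstream of it. Sesn1 and Sesn2 bind leucine, and Bmt2 binds S-adenosylmethionine, the product made from methionine. Each of these sensors acts in favor of GATOR1 when its ligand is missing. Tsc2 is part of a separate brake that acts on the GTPase Rheb.

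Library totals ran from 15733774 to 24129562 estimated reads. The CD8 libraries carried the 7 T cell markers at summed levels of 4159 to 5091 CPM (a gene's reads scaled to the library's total), against 2.11 to 77.4 CPM in the tumor libraries. Mlana, Tyr, Tyrp1 and Dct, defining melanocyte genes, were not listed for BPD6 or MC38, and Cdx2 of colon epithelium was listed for neither tumor. The other 3 of 7 melanocyte genes summed to 16.8 to 27.9 CPM in BPD6 and 6.49 to 40.0 CPM in MC38. In the CD8 libraries 2 of the 7 were listed and summed to 181 to 288 CPM, so these sums are not particular to melanocytes. The other 6 of 7 colon epithelium genes summed to 27.2 to 150 CPM in BPD6 and 5.79 to 49.1 CPM in MC38. The summed level of 5 muscle genes ran from 2.69 to 2416 CPM in MC38 and from 37.5 to 5206 CPM in BPD6, although both are labelled as tumor cells. The 7 fibroblast genes summed to 4516 to 11499 CPM in BPD6 and 920 to 2373 CPM in MC38, without overlap. The 8 macrophage genes summed to 1268 to 1810 CPM in control BPD6 and 527 to 1098 CPM in control MC38. The part of such other tissue in the results was not tested. MC38 MR replicate 1 stood apart by transcript length. Relative to the mean of the MC38 libraries, its genes with transcripts of 4262.25 bases or more lay lower than those of up to 1725 bases by -0.58 on the log2 scale, while this measure ran from -0.33 to 0.31 in the other libraries of all materials.

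Bmt2, the sensor closest to methionine itself, was read at like levels in all materials and on both diets. It lies on chromosome 6, 13625673 to 13677966 (GRCm38, minus strand). In control CD8 cells Bmt2 stood at 37.3, 39.6 and 34.9 CPM, and in MR CD8 cells at 45.3, 41.1 and 37.8 CPM. In MC38 tumors it ran from 38.8 to 48.9 CPM on the control diet and from 34.5 to 49.2 CPM on the MR diet. In BPD6 tumors the ranges were 28.5 to 38.8 CPM and 30.8 to 34.9 CPM. The diet groups overlapped in each material. The log2 change with MR was 0.08 ± 0.15 (SE) in CD8 cells, -0.06 ± 0.13 in MC38 and 0.07 ± 0.14 in BPD6. The 95% intervals ran from -0.25 to 0.40, from -0.34 to 0.22 and from -0.25 to 0.39. In bulk RNA, fewer cells of a type and less RNA per cell cannot be told apart.

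Between materials, Bmt2 differed little. Control CD8 cells lay 0.42 ± 0.14 above control BPD6 tumors on the log2 scale (edgeR's quasi-likelihood test, Benjamini-Hochberg adjusted p = 0.0130), with overlapping CPM. That call was lost when libraries were scaled by their totals alone (0.15, adjusted p = 0.313). Against MC38 the difference was 0.26 ± 0.14 (adjusted p = 0.104) and turned to -0.26 under the same scaling. Its direction between CD8 cells and MC38 thus rests on the scaling. Between BPD6 and MC38 it was -0.17 ± 0.13 (adjusted p = 0.278), and -0.41 (adjusted p = 0.0120) under library totals or -0.29 (adjusted p = 0.0483) without BPD6 control replicate 3. The 5 genes whose course over the 21 libraries was nearest to that of Bmt2, after each gene was centred within each material, were Vps26a, Smad4, Rad23b, Dctn4 and Sfr1. Their root mean square distances from it in log2(CPM + 1) were 0.103 to 0.124, against a median of 0.254 over 10554 genes compared. This distance is small for any gene that, like Bmt2, varies little within a material, so it shows no shared regulation. It also leaves out levels between materials: Vps26a averaged 22.2 CPM in CD8 cells and 117 CPM in MC38, and Smad4 131 and 101 CPM.

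**Figure D1:**
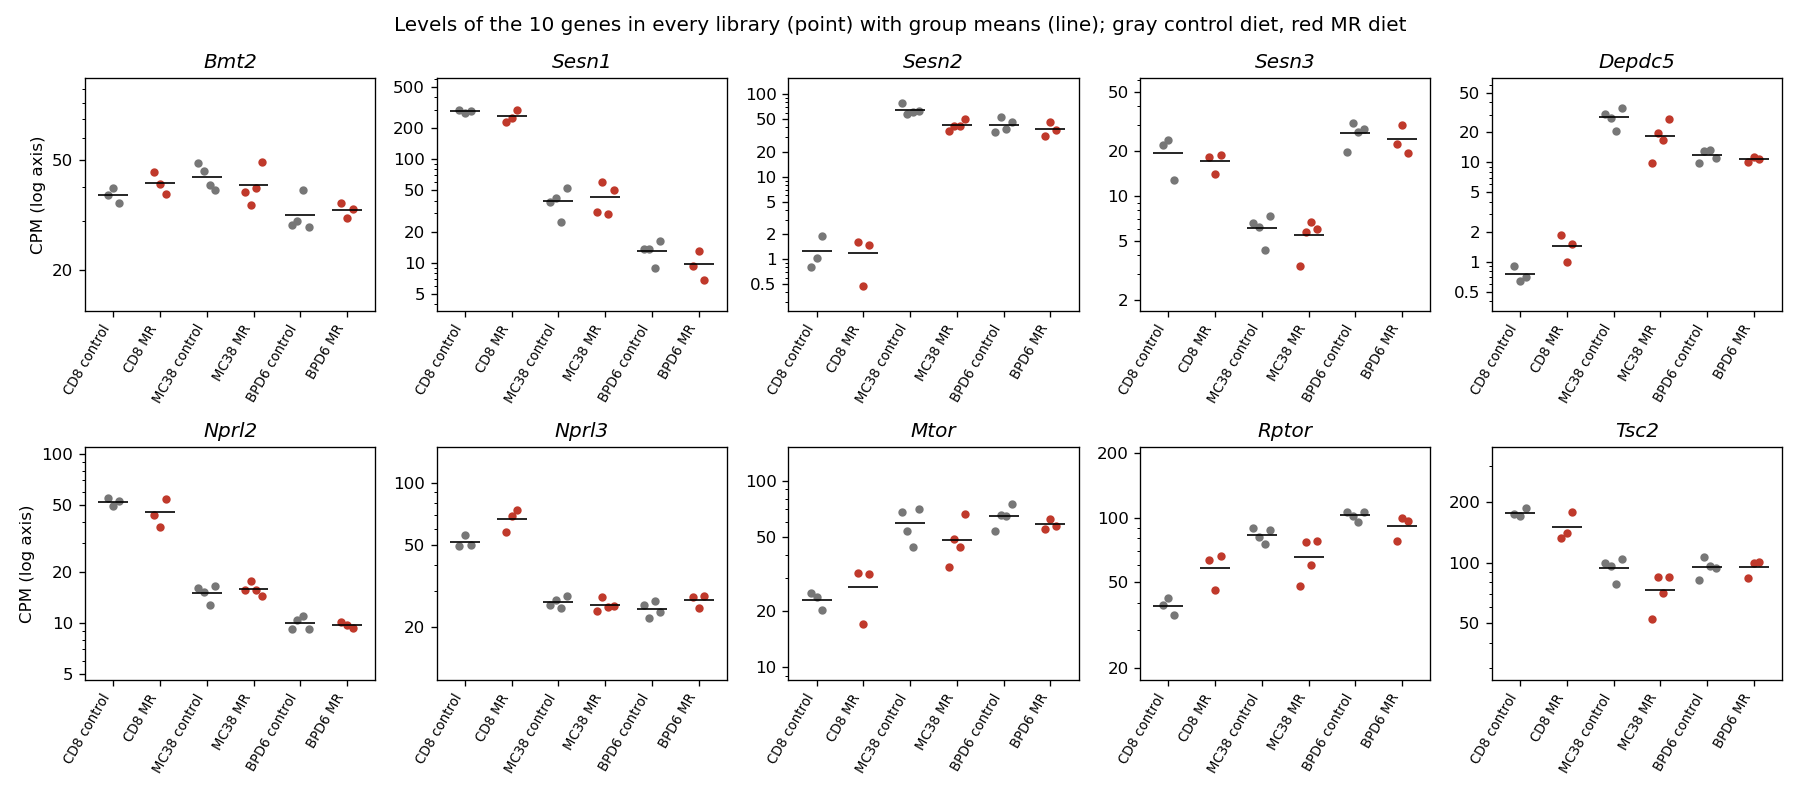
CPM of the 10 genes on a log axis, 1 panel a gene and 1 point a library, with control diet in gray, MR diet in red and the group mean as a line. Sesn1, Nprl2, Nprl3 and Tsc2 stand highest in CD8 cells, Sesn2 and Depdc5 are near 1 CPM there, and Bmt2 lies between 28.5 and 49.2 CPM in every library.

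The sestrins were divided between the materials. By share of their summed level, Sesn1 was almost all in CD8 cells, and Sesn1 and Sesn2 made up most in MC38 tumors. In BPD6 tumors all 3 held a share, with Sesn2 in front. Per kilobase of the listed transcript, Sesn1 in control CD8 cells stood at 112 ± 4.96 CPM per kb (SD, n = 3), Sesn3 at 2.14 ± 0.65 and Sesn2 at 0.364 ± 0.171. As a share of the summed level of the sestrins per kb, Sesn1 made up 97.8 ± 0.48% in control CD8 cells, 43.2 ± 8.02% in control MC38 tumors (n = 4) and 24.9 ± 4.69% in control BPD6 tumors (n = 4). The share of Sesn2 was 0.317 ± 0.147%, 54.9 ± 8.17% and 60.9 ± 3.08% in the same order. Sesn3 held 14.3 ± 1.94% in BPD6, against 1.21 to 2.38% in control CD8 libraries and 1.71 to 2.04% in control MC38 libraries. The small share in CD8 cells goes with their high Sesn1. The level of Sesn3 itself in control BPD6 was 2.88 ± 0.51 CPM per kb, near that in control CD8 cells.

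The windows upstream of the sestrin genes are shown because these paralogs differ widely in where they are read. Each runs from 250 to 51 bases before the RefSeq start that lies at or near the start of the listed transcript (RefSeq table, GRCm38.p6), and capitals mark CCAAT, here read on the opposite strand as ATTGG. Sesn1 is at chr10:41887189-41887388 (plus strand), Sesn2 at chr4:132510507-132510706 (minus strand) and Sesn3 at chr9:14276051-14276250 (plus strand).
Sesn1: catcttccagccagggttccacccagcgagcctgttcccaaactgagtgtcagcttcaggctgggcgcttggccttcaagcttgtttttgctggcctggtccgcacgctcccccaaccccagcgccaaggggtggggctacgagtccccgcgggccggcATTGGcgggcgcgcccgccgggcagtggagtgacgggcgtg
Sesn2: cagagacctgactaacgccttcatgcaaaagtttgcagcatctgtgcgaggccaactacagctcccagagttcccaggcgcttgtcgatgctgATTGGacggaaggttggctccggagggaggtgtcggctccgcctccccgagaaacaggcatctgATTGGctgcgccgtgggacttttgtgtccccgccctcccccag
Sesn3: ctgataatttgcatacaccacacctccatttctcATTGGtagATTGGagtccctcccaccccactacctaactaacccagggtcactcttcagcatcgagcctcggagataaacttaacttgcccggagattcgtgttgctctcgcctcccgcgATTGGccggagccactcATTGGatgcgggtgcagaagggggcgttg
The window of Sesn1 held 1 CCAAT, that of Sesn2 held 2 and that of Sesn3 held 4, all on the minus strand of the gene. One such match began 91 to 96 bases before the RefSeq start in each of the 3 windows. For Sesn2 that start lies 45 bases from the start of the listed transcript, so the shared position holds for the RefSeq starts only. The position is not particular to the sestrins: Bmt2 had a match at 90 bases (minus strand) and Mtor one at 93 bases (plus strand). Another RefSeq window of Sesn1, from chr10:41810324, had its match at 197 bases. How often CCAAT lies at such a position in all windows was not counted. CCAAT on either strand was found in 28.4% of 32851 windows of the same length in the RefSeq table. The FoxO motif GTAAACA (in 2.58% of all windows), the E-box CACGTG (4.34%) and the ATF4 motif TGATGNAA (2.72%) were searched on both strands and were in none of the 3 windows. A match of these letters is a description and not a binding site.

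Sesn1, a sestrin known as a p53 target gene, lies on chromosome 10, 41809935 to 41908424. It stood at 303, 278 and 296 CPM in control CD8 cells and at 231, 252 and 298 CPM in MR CD8 cells. In MC38 tumors it was 38.8, 41.9, 24.5 and 52.7 CPM on the control diet and 30.8, 60.9, 29.9 and 50.6 CPM on the MR diet. In BPD6 tumors it was 13.5, 13.6, 8.89 and 16.4 CPM against 9.23, 13.1 and 6.89 CPM. Each CD8 library was above every tumor library, and each MC38 library above every BPD6 library. The control CD8 level was 3.38 ± 0.22 above MC38 on the log2 scale (adjusted p = 1.71e-08) and 4.67 ± 0.23 above BPD6 (adjusted p = 1.41e-09), and BPD6 lay 1.29 ± 0.21 below MC38 (-1.29, adjusted p = 1.49e-04). With MR, the diet groups overlapped everywhere: -0.24 ± 0.15 in CD8 cells (adjusted p = 0.447), 0.17 ± 0.26 in MC38 (0.769) and -0.42 ± 0.26 in BPD6 (0.9997).

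Sesn2, a sestrin induced by ATF4 and p53 under stress, lies on chromosome 4, 132492032 to 132510501. In MC38 tumors it was 78.0, 57.8, 61.9 and 63.7 CPM on the control diet and 35.6, 41.2, 40.9 and 50.1 CPM on the MR diet. All 4 MR libraries were below all 4 control libraries, and 6% of all genes tested were lower without overlap in this comparison. No other member showed groups apart in MC38 on this scale; with TMM-scaled CPM Rptor was apart as well. The log2 change was -0.60 ± 0.11 (95% interval -0.85 to -0.34), and it ranked 20th by p among 14034 genes, yet edgeR's adjusted p was 0.243. edgeR called no gene in this comparison, with 1981 genes (14.1%) at an unadjusted p under 0.05 and 0 calls by limma-voom. DESeq2 called 398 genes (2.91%), Sesn2 among them (-0.59, adjusted p = 0.00111). The authors' deposited table gives Sesn2 a log2 fold change of -0.59 ± 0.13 and an adjusted p of 9.09e-04, where 2.87% of its genes are under 0.05. The value moved little when any 1 library was left out (-0.67 to -0.51) or when the trend with transcript length was taken out (-0.55 ± 0.10). Whether Sesn2 is called in MC38 thus depends on the tool, while its size does not.

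Sums of most marker lists of other tissues reached higher in MR than in control MC38 tumors, with overlap. Those of natural killer cells (up to 48.4 CPM in control and 47.9 CPM in MR) and dendritic cells (up to 47.9 and 45.6 CPM) did not. The 5 fat cell genes summed to 8.92 to 42.2 CPM in control and 18.0 to 191 CPM in MR tumors, and the 8 macrophage genes to 527 to 1098 and 636 to 1972 CPM. All markers of the fat cell and macrophage lists were listed. The part of such other tissues in the value of Sesn2 was not tested. In BPD6, Sesn2 was 35.0, 52.8, 37.8 and 46.3 CPM on the control diet and 30.9, 46.5 and 36.5 CPM on the MR diet, which overlapped (-0.17 ± 0.17). The difference of the MR effect between MC38 and BPD6 was -0.43 ± 0.22 (adjusted p = 0.849), so the effects were not shown to differ. In CD8 cells Sesn2 rested on 7.5 to 30.5 estimated reads a library, at 0.477 to 1.94 CPM, and its interval for the diet ran from -1.51 to 1.19. Control CD8 cells lay 5.23 ± 0.28 below MC38 (-5.23, adjusted p = 2.73e-09) and 4.92 ± 0.28 below BPD6 (-4.92, adjusted p = 3.67e-09).

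Sesn3, a sestrin known as a FoxO target gene, lies on chromosome 9, 14275067 to 14333101. It was 12.8 to 23.9 CPM in control CD8 cells, 4.33 to 7.35 CPM in control MC38 and 19.8 to 30.7 CPM in control BPD6. MC38 was the lowest material without overlap. CD8 cells lay 2.15 ± 0.23 above MC38 on the log2 scale (adjusted p = 2.12e-06) and BPD6 lay 2.39 ± 0.22 above it (adjusted p = 1.81e-06), whereas CD8 cells and BPD6 were not separated (-0.24 ± 0.23, adjusted p = 0.337). Its diet groups overlapped in each material, with log2 changes of -0.26 ± 0.22, -0.12 ± 0.24 and -0.13 ± 0.18 in CD8 cells, MC38 and BPD6.

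Of 7 genes known to act upstream of the sestrins, 2 were higher and 4 lower in control CD8 cells than in MC38. Against BPD6, 2 were higher and 2 lower. Of all genes, 39.4% were higher and 41.8% lower than in MC38, and 40.2% and 42% than in BPD6, so 7 genes are few to read. Atf4 (0.27 ± 0.14 and 0.03 ± 0.14) was not called in either, and Trp53 was called against MC38 (-0.83 ± 0.11) but not against BPD6 (-0.24 ± 0.11, adjusted p = 0.0631). Foxo1, a transcription factor of resting T cells, averaged 151 CPM in CD8 cells, 17.8 CPM in MC38 and 22.6 CPM in BPD6 (3.57 ± 0.20 above MC38, 2.93 ± 0.19 above BPD6 on the log2 scale). Foxo3 went the other way (3.06, 31.6 and 18.3 CPM). Of the 13 ATF4 target genes, 10 passed the filter in the CD8 table itself, Sesn2 included, a restriction added after the values had been seen. Of these 10, 9 were lower in CD8 cells than in MC38 and 8 lower than in BPD6, and none was higher, against 41.8% and 42% of all genes lower (medians -3.08 and -3.02). Asns, the asparagine synthetase gene, is not among the 10 and averaged 0.40 CPM in CD8 cells, 280.2 CPM in MC38 and 194 CPM in BPD6. Of the 11 p53 target genes tested, which include Sesn1 and Sesn2, 8 were higher in BPD6 than in MC38 and 2 lower, against 31.6% and 32.3% of all genes (median 1.79 against -0.01), among them Phlda3 (2.21 ± 0.08) and Cdkn1a (2.43 ± 0.14). Sesn1 was 1 of the 2 that were lower, with Bbc3.

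**Figure D2:**
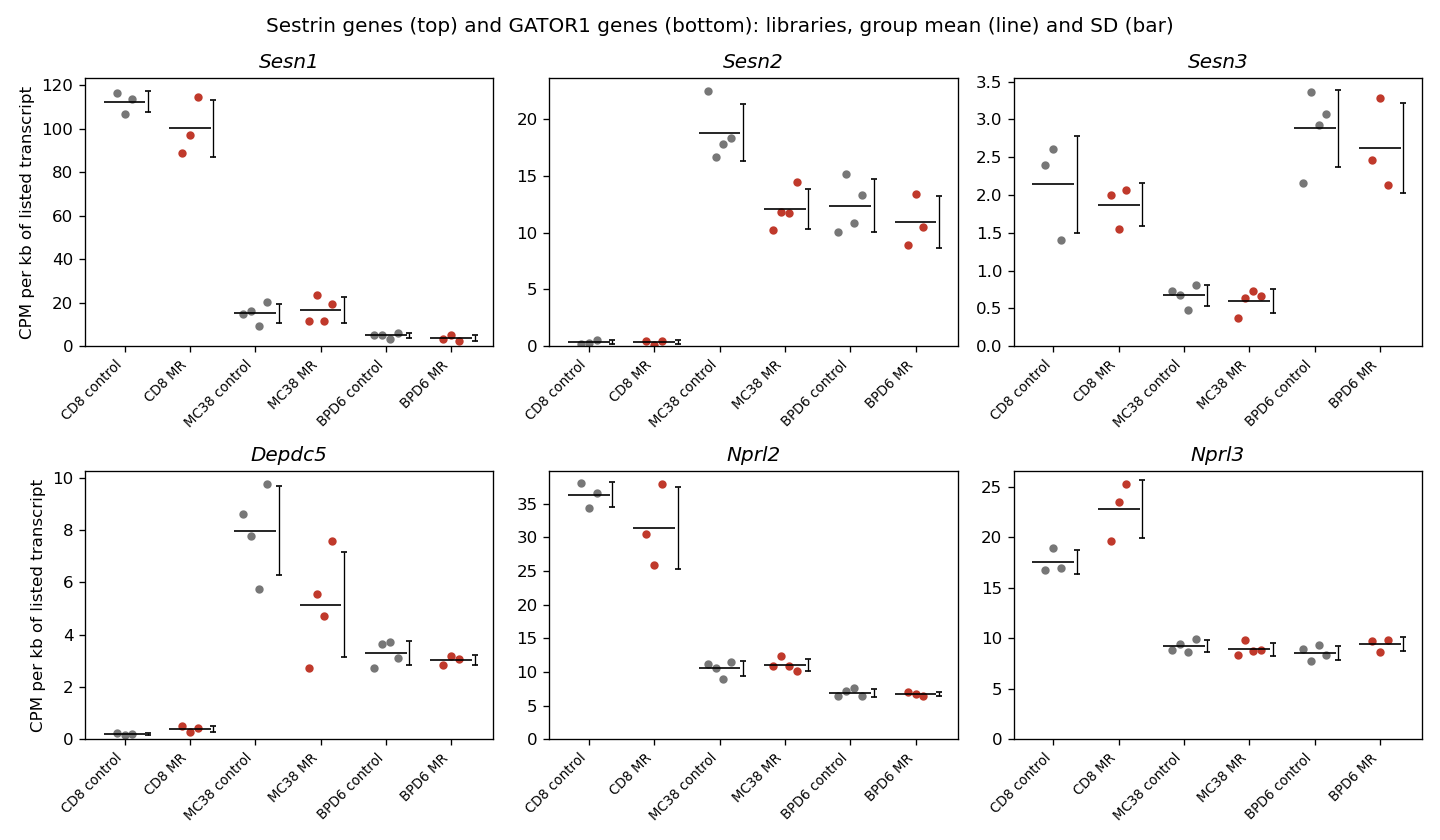
CPM per kb of the listed transcript for the sestrin genes (top) and the GATOR1 genes (bottom), 1 point a library, with the group mean as a line and its SD as a bar, control diet in gray and MR diet in red. Sesn1 and Nprl2 stand far above the tumors in CD8 cells, Sesn2 and Depdc5 far below, and in MC38 the Sesn2 libraries on MR lie under those on the control diet.

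The GATOR1 transcripts were unequal in CD8 cells. Depdc5, the subunit that contacts the Rag GTPases, was near 1 CPM there, while Nprl2 and Nprl3, which form the catalytic part of the complex, were higher than in either tumor. Depdc5 (chromosome 5, 32863701 to 32994236) was 0.895, 0.641 and 0.699 CPM in control CD8 cells and 1.83, 0.985 and 1.51 CPM in MR CD8 cells, from 11 to 30 estimated reads. In control MC38 tumors it was 30.8, 27.7, 20.5 and 34.8 CPM and in control BPD6 tumors 9.78 to 13.3 CPM. Control CD8 cells were 4.74 ± 0.25 below MC38 (-4.74, adjusted p = 2.55e-09) and 3.76 ± 0.24 below BPD6 (-3.76, adjusted p = 1.47e-08). The row of Depdc5 lists a transcript of 3569 bases, and the annotation joins 11774 bases of exon under the gene, so its level per kb depends on which transcript is taken.

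Nprl2 (chromosome 9, 107542226 to 107545706) was 55.0, 49.6 and 52.6 CPM in control CD8 cells, 12.9 to 16.6 CPM in control MC38 and 9.27 to 11 CPM in control BPD6. It lay 2.27 ± 0.12 above MC38 (adjusted p = 2.02e-09) and 2.58 ± 0.12 above BPD6 (adjusted p = 6.23e-10). Nprl3 (chromosome 11, 32225628 to 32267707) was 1.45 ± 0.11 and 1.26 ± 0.11 above them (adjusted p = 6.62e-08 and 2.29e-07). Of its exonic bases 17.7% are shared with Mpg on the other strand, and no source used here names the strand of the libraries. The row of Nprl3 lists one transcript for CD8 cells and another for the tumors. Per kb, Depdc5 made up 0.385 ± 0.062% of the summed GATOR1 level in control CD8 cells (n = 3), 28.5 ± 2.92% in MC38 (n = 4) and 17.5 ± 1.84% in BPD6 (n = 4).

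In the same materials, Kptn of KICSTOR, the complex that anchors GATOR1 to the lysosome, was 2.17 ± 0.19 above MC38 and 2.63 ± 0.19 above BPD6 in CD8 cells. With GATOR1 itself, 4 of these 7 genes were higher and 1 lower in CD8 cells against either tumor, where 39.4% and 40.2% of all genes were higher. GATOR2, the complex that holds GATOR1 in check, was split: Wdr24 was 1.95 ± 0.12 and 2.48 ± 0.13 higher in CD8 cells than in MC38 and BPD6, and Seh1l stood at -2.52 ± 0.13 and -3.10 ± 0.13. Of the other sensors, Slc38a9, the arginine sensor of the lysosome, was 2.42 ± 0.18 and 2.96 ± 0.18 higher in CD8 cells. Castor1, an arginine sensor of the cytosol, lay between the tumors, at 12.7 CPM in CD8 cells, 50.4 CPM in MC38 and 6.43 CPM in BPD6.

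At the output end, the kinase and its partner were lower in CD8 cells and the brake was higher. Mtor (chromosome 4, 148448611 to 148557683) was 20.2 to 25 CPM in control CD8 cells, 43.9 to 70.8 CPM in MC38 and 53.5 to 75.3 CPM in BPD6. CD8 cells were below without overlap (-0.88 ± 0.17 and -1.30 ± 0.17, adjusted p = 3.43e-04 and 1.18e-05). Rptor (chromosome 11, 119602905 to 119899576) was 35.1 to 42.1, 75.6 to 89.8 and 95.8 to 106 CPM in the same order (-0.62 ± 0.09 and -1.21 ± 0.09, adjusted p = 3.57e-05 and 6.80e-08). Tsc2 (chromosome 17, 24595816 to 24632630) was 170.2 to 185 CPM in control CD8 cells, 78.1 to 104 CPM in MC38 and 81.7 to 106 CPM in BPD6, which put CD8 cells 1.39 ± 0.11 and 1.09 ± 0.11 higher (adjusted p = 9.54e-08 and 8.64e-07). Of the exonic bases of Tsc2, 7.20% are shared with Pkd1 on the other strand. The row of Tsc2 lists one transcript for CD8 cells and MC38 (5598 bases) and another for BPD6 (6018 bases). The other subunits of the TSC complex did not follow Tsc2 as a group, since Tsc1 was 0.76 ± 0.15 higher in CD8 cells than in MC38 and Tbc1d7 stood at -2.14 ± 0.21.

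In all, 9 of the 10 members were called between control CD8 cells and MC38, against 81.3% of all 12347 genes, with 5 higher and 4 lower against 39.4% and 41.8%. Between CD8 cells and BPD6 9 were called against 82.1%, with 5 higher and 4 lower against 40.2% and 42%. Between BPD6 and MC38 7 were called against 63.9%, with 4 higher and 3 lower against 31.6% and 32.3%. The members' shares are near those of all genes. Between the tumors, Rptor lay 0.59 ± 0.08 higher in BPD6 than in MC38 (adjusted p = 5.48e-05) and Depdc5 stood at -0.98 ± 0.17 (adjusted p = 3.52e-04). The calls of Nprl2 (-0.31 ± 0.11), Mtor (0.42 ± 0.15) and Tsc2 (0.30 ± 0.10) were lost when one or another library was left out. Scaling by library totals alone moved the median of all genes from -0.08 to -0.60 for CD8 cells against MC38, from -0.06 to -0.33 against BPD6 and from -0.01 to -0.26 between the tumors. The direction of Nprl3 between the tumors (0.19 ± 0.10, adjusted p = 0.122) turned to -0.06 under that scaling. Material and any batch of preparation cannot be told apart here.

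Within CD8 cells, no member passed the test for diet, against 174 of 12348 genes (1.41%) called by edgeR and 4.83% by DESeq2. Rptor was the nearest. It stood at 39.3, 42.1 and 35.1 CPM in control cells and at 63.5, 45.9 and 65.9 CPM in MR cells. All MR libraries were above all control libraries, and MR replicate 2 was the lowest of them. The log2 change was 0.51 ± 0.16 (95% interval 0.18 to 0.84, unadjusted p = 0.00525, as under 0.05 for 17.3% of all genes, edgeR adjusted p = 0.110), and it ranked 587th by p. Without MR replicate 2, the lowest MR library, it was 0.63 with an edgeR adjusted p of 0.0491. Over all fits with 1 library left out it ran from 0.43 to 0.63, with edgeR adjusted p from 0.0491 to 0.412. The authors' deposited table gives Rptor a log2 fold change of 0.51 ± 0.17 and an adjusted p of 0.0591, where 4.6% of its genes are under 0.05.

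Nprl3 and Depdc5 were the other members with groups apart in CD8 cells, both higher on MR. The separation of Nprl3 was lost with TMM-scaled CPM (49.6 to 56.7 against 54.7 to 71.2). Nprl3 was 49.3, 55.8 and 49.9 CPM in control and 57.9, 69.1 and 74.3 CPM in MR cells (0.31 ± 0.15, adjusted p = 0.312), and Depdc5 had a log2 change of 0.86 ± 0.60 (adjusted p = 0.487) at the low counts given above. Of all genes tested, 14.4% were higher on MR without overlap, so 3 of 10 members is a small count to read. Nprl2, Tsc2 and Sesn1 were lower in 2 of 3 MR libraries than in any control library, and overlapped through MR replicate 3 (-0.29 ± 0.16, -0.30 ± 0.15 and -0.24 ± 0.15, adjusted p = 0.370, 0.333 and 0.447). With TMM-scaled CPM, Tsc2 did not overlap (173 to 195 against 126 to 171). Tsc2, as the example, was 173, 170.2 and 185 CPM in control and 133, 141 and 178 CPM in MR cells. The share of Nprl3 in the GATOR1 level per kb was 30.4 to 35.3% in control and 38.8 to 47.3% in MR cells.

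Sums of several marker lists of other cell types separated by diet in the same libraries, and sums of others overlapped. The 5 natural killer cell genes summed to 269.6 to 376 CPM in control and 144 to 234 CPM in MR libraries, the 3 CD4 T cell genes to 103 to 121 and 54.5 to 94.8 CPM, and the 5 dendritic cell genes to 32.7 to 51.8 and 22.5 to 31.1 CPM. The 4 red cell genes summed to 27.9 to 57.5 and 9.34 to 24 CPM. The endothelial list (3 of 5 genes listed, without Kdr and Tie1) was higher on MR, at 83.9 to 96.9 and 106 to 134 CPM, as was the muscle list (2 of 5 listed, without Ckm, Myh4 and Myl1), at 2.51 to 5.05 and 5.38 to 8.78 CPM. None of these ranges overlapped. The 6 B cell genes summed to 49.1 to 253 and 66.7 to 103 CPM, and the 8 macrophage genes to 225 to 382 and 185 to 351 CPM. These overlapped, as did the T cell, fibroblast, fat cell, melanocyte and colon epithelium lists. All genes of the natural killer cell, CD4 T cell, dendritic cell, red cell, B cell and macrophage lists were listed. How often such sums separate without a diet effect was not tested. Whether the sums come from other cells or from the CD8 cells themselves was not tested either. The melanocyte list, with 2 of 7 genes listed, summed to 181 to 288 CPM in these libraries. The part of any other cells in the values of Rptor, Nprl3 and Depdc5 was not tested.

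**Figure D3:**
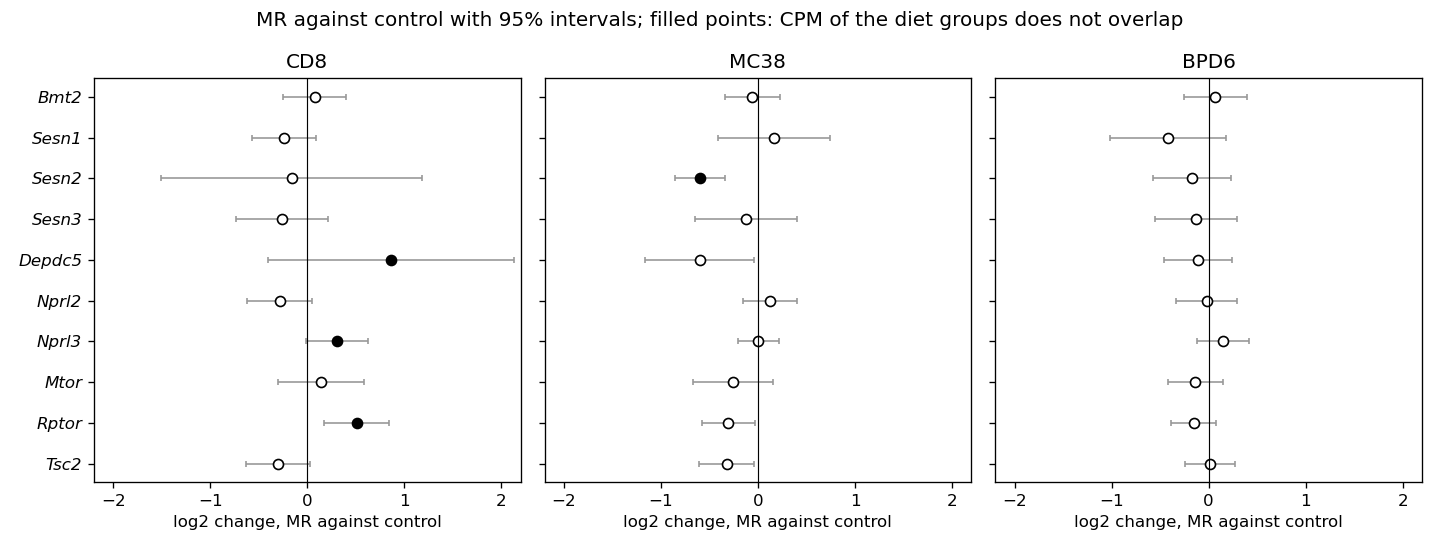
log2 change of each gene, MR against control, with its 95% interval, in CD8 cells, MC38 tumors and BPD6 tumors. Filled points mark genes whose CPM on library totals does not overlap between the diets, which are Depdc5, Nprl3 and Rptor in CD8 cells (higher) and Sesn2 in MC38 (lower), and in BPD6 every interval includes 0.

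Rptor leaned the other way in MC38. It stood at 89.8, 80.9, 75.6 and 87.4 CPM on the control diet and at 48.0, 76.9, 60.3 and 77.8 CPM on MR, overlapping by the higher MR libraries. With TMM-scaled CPM, the scale of the fits, the groups did not overlap (77.3 to 87.6 against 53.7 to 75.5; -0.31 ± 0.12, adjusted p = 0.314). In 1 fit of all 21 libraries, added after the values had been seen, the MR effect on Rptor differed between CD8 cells and MC38 by 0.84 ± 0.19 on the log2 scale (95% interval 0.45 to 1.22, edgeR adjusted p = 0.0172), among 634 of 12413 genes (5.11%) called for that difference. The call held in DESeq2 (adjusted p = 0.00168), in limma-voom (0.0278), after the correction for transcript length (0.61, adjusted p = 0.0267) and without any 1 of the 21 libraries (0.76 to 0.97). Depdc5 also differed in that fit (1.48 ± 0.39, adjusted p = 0.0364), but not in limma-voom (adjusted p = 0.241), and its call was lost without any 1 of 9 libraries. Without CD8 MR replicate 1, for example, the difference was 1.31 (adjusted p = 0.12). Between CD8 cells and BPD6, Rptor differed by 0.67 ± 0.19 (adjusted p = 0.0995), and 157 genes (1.26%) were called. The 2 differences share the CD8 libraries. Among the listed pathway genes outside the members, Mapkap1 of mTORC2 (0.69 ± 0.16), Nfe2l2 (1.51 ± 0.33) and Trib3 (1.94 ± 0.50) were called higher in the difference between CD8 cells and MC38, and Neu1 (-0.56 ± 0.14) lower. Cdkn1a was called lower too, but it was at 0 to 1.14 CPM in CD8 cells, failed the filter of that table and entered the joint fit through the tumors. Pdpk1 was called as well (1.05 ± 0.30).

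In MC38, 3 more members had an unadjusted p under 0.05 beside Sesn2, out of 14.1% of all genes. Depdc5 was 30.8, 27.7, 20.5 and 34.8 CPM on the control diet and 9.79, 19.8, 16.8 and 27.1 CPM on MR (-0.60 ± 0.25, adjusted p = 0.331). Tsc2 was 99.5, 96.2, 78.1 and 104 CPM against 52.8, 84.8, 70.7 and 85.2 CPM (-0.32 ± 0.13, adjusted p = 0.311), and Rptor is given above. In each of these genes MR replicate 1 was the lowest library, as it was for Mtor (34.4 CPM against 43.8 to 70.8 CPM in the other MC38 libraries). This is the library in which long transcripts were low. Without it the changes were -0.41 for Depdc5, -0.22 for Tsc2, -0.21 for Rptor and -0.15 for Mtor. With the length trend of every library taken out they were -0.55 for Depdc5, -0.15 for Tsc2, -0.11 for Rptor and -0.01 (-0.0079) for Mtor, from -0.26 ± 0.18 before. The correction uses the listed transcript, which for Depdc5 is much shorter than its joined exons. The part of transcript length in these values was not tested beyond this.

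**Figure D4:**
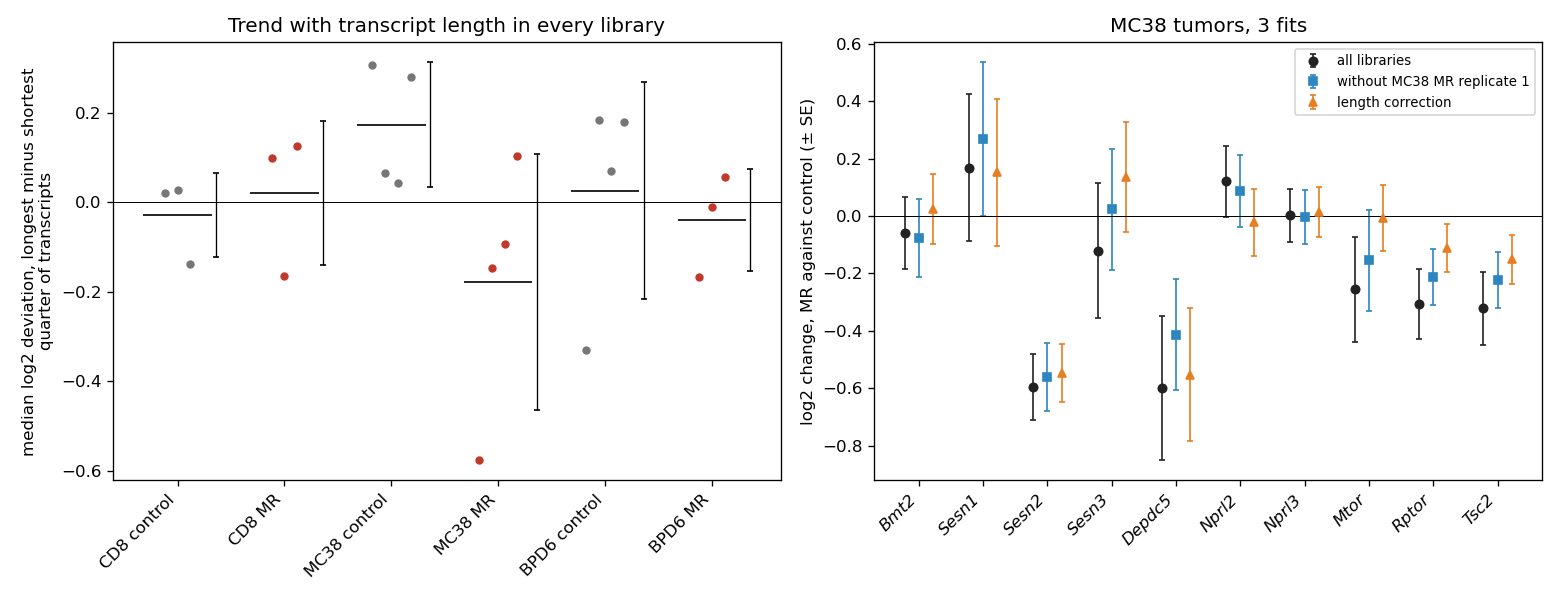
Left, the median log2 deviation of genes with long transcripts (4262.25 bases or more in MC38) minus that of genes with short ones (up to 1725 bases), 1 point a library with group mean and SD, where MC38 MR replicate 1 lies at -0.58. Right, the log2 change of each gene in MC38 with its SE in all libraries, without that library, and after the length correction, where Sesn2 stays between -0.60 and -0.55 and Mtor goes from -0.26 to near 0.

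In BPD6, no member stood apart between the diets, against 3.34% of all genes. edgeR called 0 of 13978 genes, with 258 (1.85%) at an unadjusted p under 0.05, limma-voom called 0 and DESeq2 called 1 (0.00718%), which was no member. The widest shift was that of Sesn1, given above. Rptor was 106, 102, 95.8 and 106 CPM on the control diet and 77.7, 99.4 and 96.9 CPM on MR (-0.15 ± 0.10, 95% interval -0.39 to 0.08). Depdc5 ran from 9.78 to 13.3 CPM and from 10.1 to 11.4 CPM (-0.11 ± 0.15). For the difference of the MR effect between the tumor lines, edgeR called 0 of 14257 genes, with 742 (5.2%) at an unadjusted p under 0.05, limma-voom called 0 and DESeq2 called 10 (0.0894%). No member was at an unadjusted p under 0.05 in it.

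The rest of the pathway was not called by edgeR for diet either. None of the genes in 14 lists of the pathway, its inputs and its targets passed edgeR's test for diet in CD8 cells, MC38 or BPD6. Of all genes, edgeR called 1.41% in CD8 cells and 0 in MC38 and in BPD6, so in the tumors no list could have held a call. These lists were read in edgeR's fits alone. Of the 9 mTORC1 and mTORC2 subunit genes, 6 were higher on MR in CD8 cells (median log2 change 0.14 against 0.01 over all genes) and 3 were higher in MC38 (median -0.05 against 0.02). The lowest p among them in CD8 cells was that of Mapkap1, an mTORC2 subunit, at 0.62 ± 0.18 (adjusted p = 0.0998). Of the 9 sensor genes, 4, 3 and 4 were higher on MR in CD8 cells, MC38 and BPD6. Of the 15 lysosome genes that the TFEB family drives, 8 were higher on MR in CD8 cells, 12 in MC38 and 14 in BPD6. Their medians were 0.02, 0.12 and 0.18, against 0.01, 0.02 and -0.01 over all genes. Of the 13 ATF4 target genes, Sesn2 included, 11 were lower on MR in MC38 and 5 in BPD6. The medians of these genes were -0.08 and 0.03, against 0.02 and -0.01 over all genes. In CD8 cells those tested went both ways without a call, with Trib3 at 1.48 ± 0.43 and Nupr1 at -0.78 ± 0.49. Chac1, an ATF4 target, stood at -0.70 ± 0.20 in MC38 (adjusted p = 0.256).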

How the data were processed

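The deposited tables give estimated counts per gene (multiples of 0.5) for each library, made by the authors on GRCm38 (mm10) per the submitters' processing notes; no source used here names the aligner, the counting or the strand. The same tables hold the authors' log2 fold changes, scores, p-values and mean normalized signal, per the file headers; the log2 changes and p-values are quoted only as the authors'. A further 21 per-library columns were not used. CPM is the count over the library's total.

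Counts were rounded and tested with edgeR 4.0.16 (TMM, filterByExpr, quasi-likelihood test, Benjamini-Hochberg adjustment over all genes tested, threshold 0.05) in R 4.3.3, with limma 3.58.1 and DESeq2 1.42.0 as alternatives. Diet was tested within each table, and materials and differences of effects in joint fits. Lengths and positions came from GENCODE for GRCm38, with a length for 88.9 to 89.4% of genes. The fits were tested on simulated data. The 10 members, the gene lists and the rule for naming genes (at most 3 called genes per list and direction by lowest p, for diet the 2 of lowest p, and the 5 nearest to Bmt2) were chosen with earlier results of these data known.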

Additional observations from a re-analysis of the deposited data

Results flagged for a closer look

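Bmt2 in control BPD6 tumors had 1 library far above the other 3, replicate 3 at 38.8 CPM against 28.5 to 30.1 CPM, where its gap to the next library was 0.848 of the group's range. It was the only one of 30 groups of 4 libraries of a member that passed this test, which flags about 1 in 20 groups by chance. The MR effect differed between CD8 cells and MC38 tumors by a test of the difference itself for Rptor (0.84 on the log2 scale) and for Depdc5 (1.48). For Rptor the direction was up in CD8 cells and down in MC38 under each alternative tried. For Depdc5 the CD8 values rest on 11 to 30 estimated reads a library.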

How the results depend on the processing

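Of 1689 alternative values for the 90 results on single members, 1590 kept their direction and their side of the threshold, 26 lost a call, 7 gained one and 66 changed sign. None of the results that changed sign was called in edgeR's test as reported.

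Scaling by library totals alone turned Nprl3 to -0.05 for diet in MC38, Bmt2 to -0.26 between CD8 cells and MC38, Nprl3 to -0.056 between the tumors and Sesn3 to -0.029 in the difference between the tumors' MR effects. That last value was also -0.010 with RLE factors, -0.012 in DESeq2, -0.016 in limma-voom and -0.039 for rows with the same listed transcript. The difference between CD8 cells and BPD6 for Bmt2 was -0.016 with RLE factors, -0.016 in DESeq2, -0.0019 in limma-voom and -0.014 for the same transcript. The correction for transcript length, chosen after seeing the data, gave 0.025 for Bmt2, 0.14 for Sesn3 and -0.021 for Nprl2 in MC38, 0.032 for Mtor between the tumors' effects, -0.15 for Tsc2 between CD8 cells and MC38, and -0.055 for Bmt2 and -0.020 for Sesn2 between CD8 cells and BPD6. The cause was not tested.

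Leaving out 1 library gave, for diet, -0.41 to 0.28 for Sesn2 in CD8 cells, and in MC38 -0.030 to 0.026 for Nprl3, -0.24 to 0.023 for Sesn3, -0.14 to 0.020 for Bmt2 and -0.032 to 0.32 for Sesn1. In BPD6 it gave -0.046 to 0.085 for Tsc2 and -0.065 to 0.040 for Nprl2. For the differences of effects it gave -0.13 to 0.17 for Sesn3 between the tumors, -0.33 to 0.062 for Sesn3 and -0.076 to 0.15 for Tsc2 between CD8 cells and MC38, and -0.11 to 0.062 for Bmt2, -0.22 to 0.44 for Sesn2 and -0.37 to 0.040 for Sesn3 between CD8 cells and BPD6.

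The count of genes called for diet in CD8 cells went from 174 to 596 in DESeq2, and from 7 (without MR replicate 1) to 290 (without MR replicate 2) when 1 library was left out. DESeq2 called 398 in MC38, 1 in BPD6 and 10 between the tumors' effects, where edgeR called 0 with any library left out. For the difference between CD8 cells and MC38, DESeq2 called 1229, limma-voom 342 and the fit on rows with the same transcript, which holds fewer genes, 310, with 248 to 897 when 1 library was left out. For CD8 cells and BPD6 these were 464, 0, 46 and 56 to 298. The fits on the same transcript called 6108, 6204 and 4722 genes between materials, and 9731 to 10068, 9875 to 10132 and 7214 to 8144 were called with 1 library left out. Scaling by library totals alone moved the split of higher and lower calls from 73 and 101 to 81 and 59 for diet in CD8 cells, from 4869 and 5167 to 3599 and 6556 for CD8 cells against MC38, from 3900 and 3988 to 2861 and 5319 between the tumors and from 341 and 293 to 486 and 186 for the difference between CD8 cells and MC38.

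The replicate numbers did not pair the samples: the correlation of same-numbered deviations was -0.18 to 0.04 in CD8 cells and -0.28 to 0.38 in MC38. With the number as a replicate block, 74 genes were called in CD8 cells and 0 in MC38, and no member changed its call. In BPD6 no block was run, since the MR columns could not be matched to the numbers of the labels. Depth limits Sesn2 and Depdc5 in CD8 cells.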
